A study of Mus musculus with 18 samples.

Results

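Genes of DNA replication were followed in bone marrow-derived macrophages, with and without the transcription factor Klf3, before and after 8 h with lipopolysaccharide (LPS) or its vehicle. The members are 40 named genes of the replication machinery, its nucleotide supply and its close regulators, chosen by symbol. Of these, 39 were represented by a probe set with a single gene symbol and were analysed among 17097 genes; Chaf1a was not analysed here. The 39 genes had 70 of the 45141 probe sets, and each gene was read from its brightest probe set on average.

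The macrophages came from male FVB/NJ mice aged 10 to 14 weeks, wild type (WT) or Klf3 knockout (KO), and were grown from marrow for 7 to 10 days with L929-conditioned medium, which supplies the growth factor M-CSF. In all groups this medium was removed, the cells were washed and regular medium with serum but no L929 supplement was given. WT and KO cells were harvested either at that point (0 h), or after 8 h with LPS at 100 ng/mL (8 h LPS), or after 8 h with phosphate-buffered saline (8 h vehicle), with 3 arrays in each of the 6 groups. The labels do not say whether the 3 arrays of a group came from separate mice, so p-values measure the spread between these samples, which may be technical, and they do not say which part of Klf3 was deleted.

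As background, replication starts when ORC, CDC6 and CDT1 load the MCM2-7 helicase onto origins, a step that geminin (Gmnn) blocks outside its proper time. CDC45 and the GINS complex then activate the helicase, and primase, the DNA polymerases, the sliding clamp PCNA and its loader RFC copy the strands. Macrophages in culture divide in response to M-CSF, and many replication genes are transcribed through E2F factors as cells enter S phase.

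Values are normalized intensity units, whose log2 was tested with limma over all 18 arrays, and a gene was called at a Benjamini-Hochberg adjusted p under 0.05 over all 17097 genes. A log2 difference is given ± its standard error (SE). The nonspecific level of an array, the 95th percentile of its 23 nonspecific control probe sets, served as the floor of detectable signal. It was exceeded in all 18 arrays by 29 members and in some arrays by the other 10.

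All 11 measured macrophage markers lay above that level in every array, with summed levels of 28920 to 38070 units. None of the 4 measured dendritic cell markers did so in any array, and 8 of 9 fibroblast markers were below it in all 3 arrays of each group. The 7 neutrophil markers summed to 127.9 to 141.8 units in WT and 219.8 to 338.5 in KO at 0 h. Their sums were 284.2 to 389.2 and 457.5 to 518.9 in vehicle arrays, and 557.2 to 896.9 and 529.5 to 698.8 in LPS arrays. Of these 7 markers, 4 to 6 were above the level in none of a group's arrays. For LPS against vehicle the sign was positive for 2 and negative for 5 in WT, and for 3 and 4 in KO. The 11 progenitor markers summed to between 94.1 and 307.7 units, with 9 to 11 of them above the level in none of a group's arrays, and 5 or 6 of the 7 T and B cell markers likewise. The part of these cells in the results was not tested. In such bulk samples, fewer dividing cells and less RNA per dividing cell cannot be told apart. Klf3 has 6 probe sets. For 3 of them all KO arrays were lower than all WT arrays, at 129.1 to 293.8 units in WT and 5.53 to 17.4 in KO, at 131.2 to 349.9 and 36.7 to 58.8, and at 294.9 to 703.9 and 67.7 to 175.3. For the other 3 the genotypes overlapped, at 116.1 to 324.8 units in WT and 164.7 to 595 in KO, at 28.7 to 117.2 and 53.1 to 84.3, and at 13.8 to 25.1 and 16.96 to 31.3. Since a plate row held arrays of 1 condition, treatment and row cannot be told apart.

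Some arrays stood apart for the replication genes. At 0 h, array 2 was the lowest of its group for 37 of 39 members in WT and for 38 in KO, against 37.3% and 32.1% of all genes. After vehicle, KO array 3 was the highest of its group for 37 members, against 40% of all genes, with a median deviation of 0.50 log2 units from the group mean. The same array was also the highest for all 28 measured mitosis genes. WT vehicle array 3 was the lowest of its group for 27 members, against 38.9% of all genes.

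**Figure D1:**
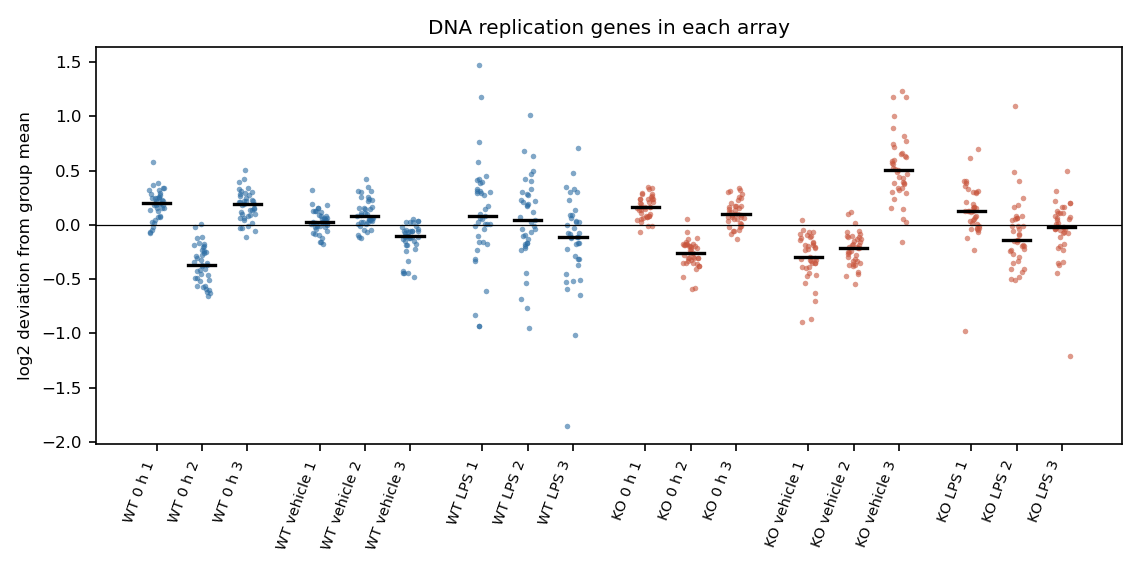
Deviation of each DNA replication gene from its group's mean log2 intensity (y axis, log2 units) in each of the 18 arrays (x axis); points are the 39 genes and bars their median. KO vehicle array 3 lies above its group for 37 genes, and array 2 at 0 h lies lowest in its group for 37 genes in WT and 38 in KO.

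Promoter sequence was available for 32 of the 39 members, from the RefSeq annotation of GRCm38.p6, as windows of 250 bases before to 50 bases after each start site. The E2F motif was searched as TTTCCCGC, TTTGGCGC, TTTCGCGC or TTTGCCGC on both strands. It was found for 13 of the 32 members. It lay in 33.3% of the 39 member windows and in 2.26% of all 32851 windows. The stretches shown are examples from members described in the results, with letters that match the motif in capitals, and from Rrm2 and Prim1, which had the widest fitted falls with LPS in WT and hold no match in their windows. All lie upstream of the start site, 5′ to 3′ on the strand of the gene; in Mcm6 and Mcm5 neighbouring matches on opposite strands overlap.
Mcm6, chr1:128359706-128359825, minus strand: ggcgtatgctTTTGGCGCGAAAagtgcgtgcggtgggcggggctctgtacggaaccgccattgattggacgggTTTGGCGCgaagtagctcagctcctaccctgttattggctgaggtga
Mcm5, chr8:75109330-75109389, plus strand: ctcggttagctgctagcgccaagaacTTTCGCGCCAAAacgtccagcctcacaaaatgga
Cdc6, chr11:98907987-98908046, plus strand: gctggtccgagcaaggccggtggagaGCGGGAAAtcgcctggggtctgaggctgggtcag
Uhrf1, chr17:56304102-56304161, plus strand: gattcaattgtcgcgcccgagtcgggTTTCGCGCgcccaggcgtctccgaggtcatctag
Pola1, chrX:93632260-93632319, minus strand: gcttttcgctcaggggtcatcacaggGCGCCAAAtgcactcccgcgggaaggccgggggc
Mcm7, chr5:138172015-138172074, minus strand: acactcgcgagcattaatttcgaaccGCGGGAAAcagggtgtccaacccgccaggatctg
Rrm2, chr12:24708194-24708253, plus strand: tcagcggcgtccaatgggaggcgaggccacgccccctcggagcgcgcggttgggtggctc
Prim1, chr10:128015155-128015214, plus strand: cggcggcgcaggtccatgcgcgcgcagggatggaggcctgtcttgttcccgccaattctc

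Other short motifs were searched in the same windows on both strands. CCAAT lay in 59% of the member windows and in 37.4% of all windows. The GC box CCGCCC, searched as a letter string of Krüppel-like factors too, lay in 69.2% and 35.7%. The cell cycle motif CHR (TTTGAA or TTCGAA) lay in 15.4% of the member windows and in 19.2% of all, and CCACACCC, a letter string bound by Krüppel-like factors, in 5.13% and 3.56%. A match is a description of letters and shows no binding.

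The first comparison asked how the replication genes changed over 8 h without LPS, after the L929-conditioned medium had been taken away. In WT cells, 34 of 39 members fell and none rose, where 7.01% of all genes were called lower and 7.16% higher. The median member difference was -1.26 on the log2 scale, against 0.00 over all genes. For every one of the 39 members the 3 vehicle arrays lay below the 3 arrays at 0 h, which held for 17.8% of all genes. After vehicle the WT members stood at a median 41.7% of their 0 h level, from 12.4% for Uhrf1 to 71.5% for Slbp. In KO cells 25 members fell and none rose, where 5.79% of all genes were called lower and 6.76% higher, with a median of -0.84, against -0.01 over all genes. The arrays did not overlap, with vehicle lower, for 23 members, against 16% of all genes.

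Among the licensing factors, 4 of 5 fell in WT and 2 of 5 in KO, beside 7.01% and 5.79% of all genes called lower. Cdc6, the ATPase that helps load the helicase, read 126, 53.4 and 89.3 units in WT at 0 h and 10.9, 14.6 and 8.12 after vehicle. In KO it read 99.3, 68.1 and 88.9 at 0 h and 10.1, 10.8 and 13.4 after vehicle. All 6 vehicle arrays were below the nonspecific level and far under every 0 h array. Set against that level, Cdc6 was at least 5.69-fold lower after vehicle in WT and at least 5.68-fold lower in KO. Its fitted log2 differences were -2.95 ± 0.28 (adjusted p = 8.31e-06) and -2.90 ± 0.28 (adjusted p = 8.46e-06). Gmnn, the inhibitor of licensing, fell in both genotypes, by 0.90 and 0.74 log2 units. Cdt1, the loading factor, fell by 0.72 in WT (adjusted p = 0.0175), and its difference in KO was -0.29 (adjusted p = 0.385). The WT call of Cdt1 was lost in 3 of 20 alternative fits. Among them were leaving out WT replicate 1 (adjusted p = 0.122) and shifting arrays to equal hybridisation controls (0.166). Orc1, the ATPase subunit of ORC, fell by 0.73 in WT and differed by 0.12 in KO (adjusted p = 0.777). A second Orc1 probe set, above the nonspecific level in 7 arrays, differed by -1.75 in WT and -1.51 in KO (adjusted p = 0.000972 in KO over all probe sets), so the sets did not share a sign in KO. Orc6 passed in neither genotype (adjusted p = 0.0579 and 0.0692).

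Of the helicase and its activators, 9 of 10 fell in each genotype, and Cdc45 passed in neither. Mcm6 is a subunit of the MCM2-7 ring. It read 1365, 872 and 1853 units in WT at 0 h and 216, 200 and 213 after vehicle. In KO the values were 1410, 920 and 1259, and 227, 229 and 507. The groups did not overlap in either genotype, although KO vehicle array 3 stood above its partners. The log2 difference was -2.63 ± 0.36 in WT (adjusted p = 0.000141) and -1.99 ± 0.36 in KO (adjusted p = 0.0014), where the call was lost without KO replicate 1 (adjusted p = 0.0594). The other MCM ring subunits, Mcm2, Mcm3, Mcm4, Mcm5 and Mcm7, fell by 1.48 to 2.29 in WT and by 1.05 to 1.69 in KO. Gins1 and Gins2, subunits of the GINS complex, fell by 1.74 and 1.37 in WT and by 1.05 and 1.06 in KO. The KO call of Gins1 was lost without KO replicate 1 (adjusted p = 0.292) or replicate 2 (0.0725).

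Pcna, the sliding clamp that holds polymerases on DNA, read 5158, 4261 and 4561 units in WT at 0 h and 2789, 2859 and 2780 after vehicle, a fall of 0.73 ± 0.15 (adjusted p = 0.00396). The KO values were 4672, 3844 and 4537, and 2569, 2625 and 3694, a fall of 0.57 ± 0.15 (adjusted p = 0.021). Of the clamp loader subunits Rfc2 to Rfc5, Rfc3 and Rfc4 fell in both genotypes, Rfc2 in WT, and Rfc5 passed in neither (adjusted p = 0.0599 in WT). All 7 members for polymerases, primase and the single-strand binder RPA fell in WT, and all but Pold1 in KO. Pola1, the catalytic subunit of the priming polymerase, fell by 1.52 and 1.10. For Prim2, a primase subunit, a dim probe set had the opposite sign (0.16 in WT and 0.07 in KO, where the chosen set fell by 0.73 in both).

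Of the Okazaki fragment enzymes, the ligase Lig1 fell in WT by 1.04, while the nuclease Fen1 differed by -0.77 in WT (adjusted p = 0.061) and -0.62 in KO. The nucleotide supply genes all fell in WT. They were the ribonucleotide reductase subunits Rrm1 and Rrm2, thymidylate synthase Tyms, thymidine kinase Tk1 and the dUTPase Dut, with log2 differences of -1.25 to -2.47. In KO only Tk1 and Dut of these passed, although a second Rrm2 probe set, above the nonspecific level in 13 arrays, differed by -1.98 (adjusted p = 0.00705 over all probe sets). Dut read 280, 200 and 216 units in KO at 0 h and 52.5, 61.3 and 85.0 after vehicle, and the groups did not overlap. Its difference in KO was -1.82 ± 0.54 (adjusted p = 0.035), and the call was lost without KO replicate 1 (adjusted p = 0.266), replicate 2 (0.161) or replicate 3 (0.102).

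Uhrf1, which brings the maintenance DNA methyltransferase to newly copied DNA, had the widest fitted difference of the members in WT. It read 511, 275 and 475 units at 0 h and 55.2, 62.6 and 37.1 after vehicle. In KO it read 344, 249 and 340 at 0 h and 57.1, 60.4 and 199.9 after vehicle, so KO vehicle array 3 lay close under the lowest 0 h array. The log2 difference was -3.01 ± 0.41 in WT (adjusted p = 0.000161) and -1.80 ± 0.41 in KO (adjusted p = 0.00812). Chaf1b, a subunit of the histone chaperone CAF-1, fell by 2.31 and 1.50. The methyltransferase Dnmt1 itself did not pass in either genotype, with -0.59 (adjusted p = 0.0946) and -0.30. Of the regulators, E2f1, a transcription factor of S-phase genes, fell by 0.94 and 0.78, and Slbp, which binds histone mRNA, fell by 0.48 in WT.

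The number of members called depended on the arrays. In WT it was 20 without replicate 3 and 34 without array 2 at 0 h alone. In KO it was 2 without replicate 1, 11 without replicate 2 and 30 without vehicle array 3 alone. Without scaling, all genes shifted by -0.20 in WT and -0.26 in KO, and the member medians were -1.50 and -1.15. Over all genes the calls split into 1225 higher and 1198 lower in WT, against 464 and 1420 with equal medians, 222 and 1465 without scaling, and 165 and 545 with equal hybridisation controls. The KO split was 1155 and 990, against 337 and 2048, 199 and 1559, and 113 and 662. The Gapdh 5′ minus 3′ log2 signal, a sign of RNA integrity, ran from 0.01 to 0.15 in the 0 h arrays and from -0.32 to -0.07 in the vehicle arrays, and its part in the result was not tested.

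The change over 8 h with vehicle was then compared between genotypes. With limma, 0 of 39 members passed, as did 0% of all genes. An unadjusted p under 0.05 was held by 1 member, beside 628 of all 17097 genes. The difference was toward a smaller fall in KO for 38 of 39 members, with a median of 0.34 log2 units. Without KO vehicle array 3 the median was 0.09, and 11 members took the other sign. The intervals of these differences reached from -1.57 (Dut) to 2.70 (Rrm2) at 95% confidence.

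**Figure D2:**
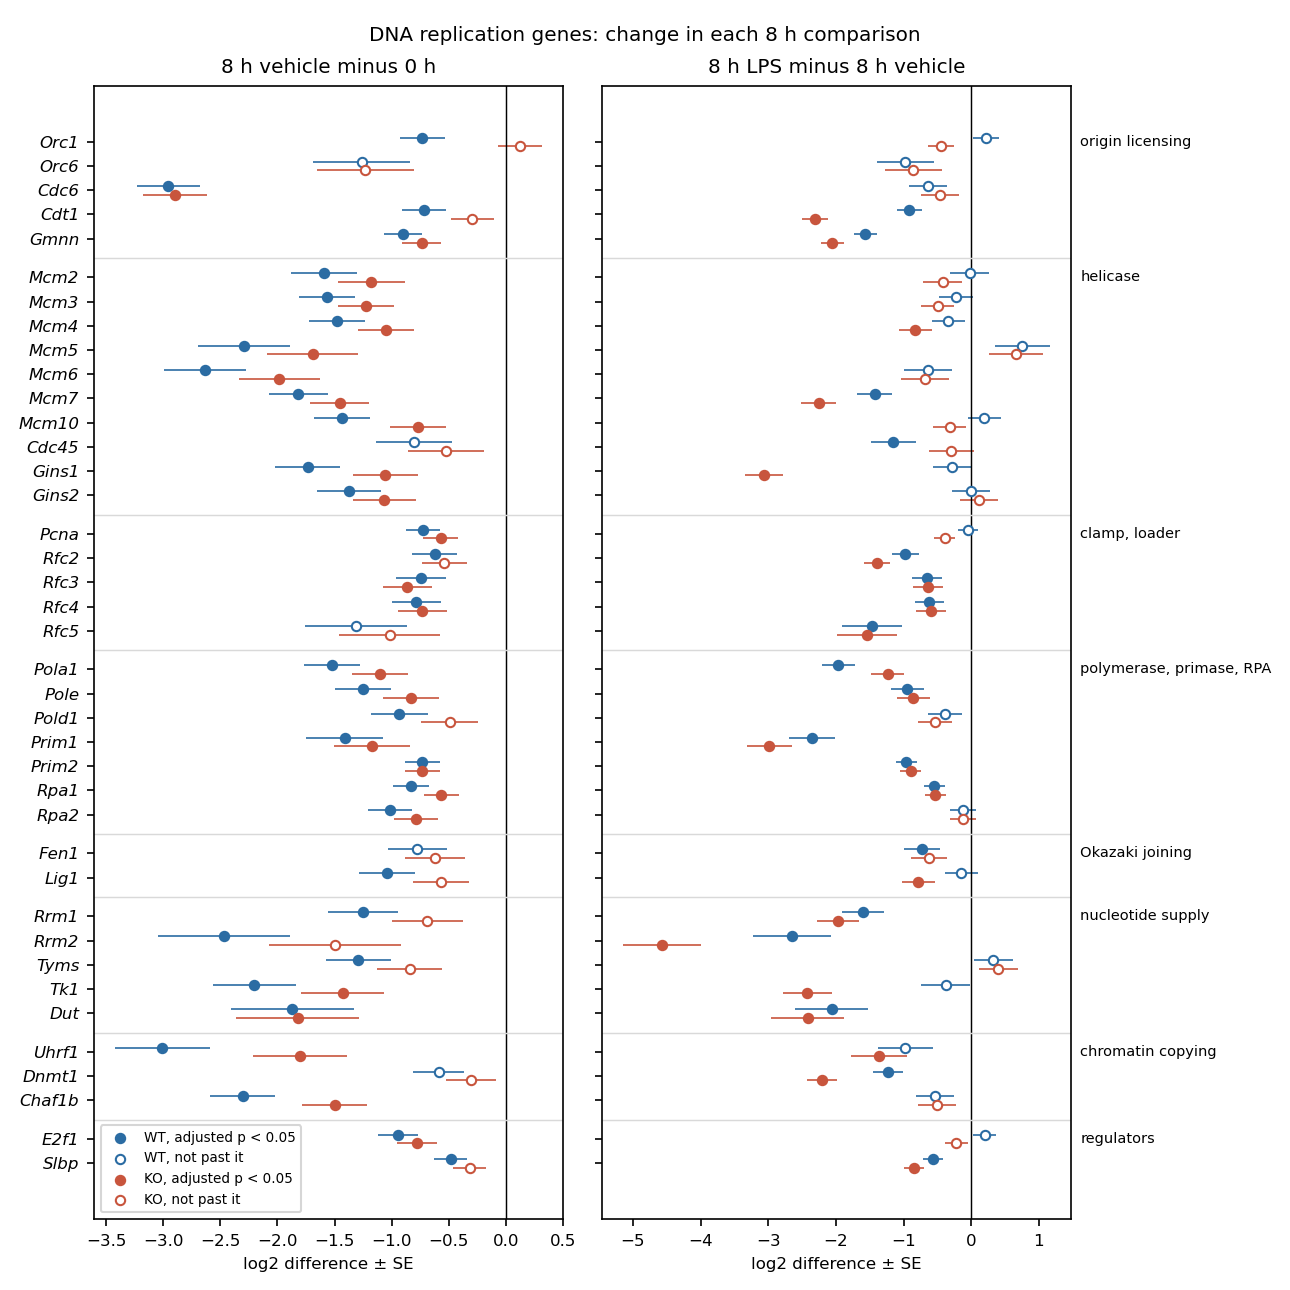
Log2 differences ± SE (x axes) of the 39 DNA replication genes (y axis, grouped by role), for 8 h vehicle minus 0 h at left and 8 h LPS minus 8 h vehicle at right; blue is WT, red is KO, and filled points passed an adjusted p of 0.05. The left panel holds 34 filled WT and 25 filled KO points, all below 0, and the right panel 19 and 22.

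The second comparison asked what LPS changed relative to vehicle at the same time. The vehicle arrays enter this comparison as well as the one above, so the values stand side by side and are not independent. In WT, 19 of 39 members were lower with LPS and none higher, beside 18.7% of all genes called lower and 13.7% higher (32.3% in all). The median member difference was -0.64, against -0.01 over all genes. In KO, 22 were lower and none higher, beside 20.6% of all genes called lower and 13.9% higher (34.5% in all), with a median of -0.79, against -0.03 over all genes. The groups did not overlap, with LPS lower, for 22 members in WT and 26 in KO, against 22.6% and 26.3% of all genes. With LPS the members stood at a median 28.8% of their 0 h level in WT and 30.3% in KO.

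The members were also counted by role, beside 18.7% of all genes called lower in WT and 20.6% in KO. Of the 10 helicase genes, 2 fell in WT (20%) and 3 in KO (30%). In each genotype 4 of 5 clamp and loader genes and 5 of 7 polymerase, primase and RPA genes fell. Nucleotide supply genes fell for 3 of 5 in WT and 4 of 5 in KO. Licensing factors fell for 2 of 5 in each genotype, chromatin copying genes for 1 of 3 and 2 of 3, and Okazaki enzymes and regulators for 1 of 2 each.

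Rrm2, the regulated small subunit of ribonucleotide reductase, had the widest fitted difference in both genotypes. In WT it read 124, 141 and 83.1 units after vehicle and 18, 36.3 and 8.87 after LPS. The KO vehicle values were 132, 194 and 576, and the KO LPS values 11.2, 22.0 and 4.45. All LPS arrays lay below all vehicle arrays, and 1 of 3 LPS arrays in each genotype was above the nonspecific level. The log2 difference was -2.65 ± 0.58 in WT (adjusted p = 0.00173) and -4.57 ± 0.58 in KO (adjusted p = 9.01e-06). With all values raised to the nonspecific level it was -2.28 and -3.69, and in KO it was -3.35 without replicate 3.

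Prim1, the catalytic primase subunit, read 107, 105 and 92.9 units after vehicle in WT and 10.4, 30.7 and 24.3 after LPS. The KO vehicle values were 89.6, 98.6 and 169, and the KO LPS values 17.9, 10.4 and 16.1. The groups were apart in both genotypes, and in KO all 3 LPS arrays were below the nonspecific level. The WT difference was -2.35 ± 0.33 (adjusted p = 3.62e-05). In KO the level was at least 6.80-fold lower with LPS (fitted log2 difference -2.99 ± 0.33, adjusted p = 2.44e-06).

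Dut, which keeps uracil out of DNA, read 52.3, 70.3 and 50.5 units after vehicle in WT and 30.9, 21.9 and 3.78 after LPS. The LPS arrays lay below the vehicle arrays, with array 3 lower than its partners. The difference was -2.06 ± 0.54 (adjusted p = 0.00671) and fell in size to -1.22 without WT replicate 3, with the call kept. It was lost with only the 2 WT groups in the fit (adjusted p = 0.0737). In KO the difference was -2.42 ± 0.54 (adjusted p = 0.0019).

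Other members that fell with LPS in both genotypes were Pola1 (-1.96 in WT, -1.23 in KO), Rrm1 (-1.60, -1.97), Gmnn (-1.57, -2.05), Mcm7 (-1.43, -2.26), Rfc5 (-1.47, -1.54) and Dnmt1 (-1.23, -2.20). Rfc2, Rfc3, Rfc4, Pole, Prim2, Rpa1 and Slbp also fell in both, by 0.54 to 0.98 in WT and by 0.53 to 1.39 in KO. Of these, a second Slbp probe set differed by 0.04 in WT and 0.01 in KO, so the sets did not share a sign. A second Prim2 set, above the nonspecific level in all 18 arrays, differed by -0.08 in WT and -0.07 in KO (adjusted p = 0.848 and 0.859 over all probe sets). The Rfc5 LPS arrays in WT read 19.3 to 103 units and overlapped the vehicle arrays at 86.8 to 120. Of the MCM ring, Mcm7 fell in both genotypes and Mcm4 in KO, whereas Mcm2, Mcm3, Mcm5 and Mcm6 passed in neither. A second Mcm7 set, above the nonspecific level in all 18 arrays, differed by -0.69 in WT and -1.06 in KO (adjusted p = 0.0771 and 0.00673 over all probe sets). Mcm5 read 79.4, 83.1 and 51.0 units after vehicle in WT and 145, 107 and 104 after LPS, so its LPS arrays were all higher, at 0.76 ± 0.40 (adjusted p = 0.177). Cdc6, the member nearest to the median in WT, read 6.81, 6.54 and 7.71 units with LPS in WT and 9.01, 6.09 and 10.2 in KO. These are all below the nonspecific level, as were its vehicle arrays, so its fitted difference carries no fold.

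In WT alone Cdc45 (-1.15) and Fen1 (-0.73) passed, and in KO alone Tk1 (-2.43), Gins1 (-3.07), Uhrf1 (-1.37), Mcm4 (-0.83) and Lig1 (-0.79), a comparison of calls that tests no difference between genotypes. Orc6, Pold1 and Chaf1b passed in neither, and all 3 WT LPS arrays of Chaf1b were below the nonspecific level. Pcna, Gins2, Rpa2, Tyms, E2f1, Orc1 and Mcm10 passed in neither genotype, with differences of -0.12 to 0.33 in WT and -0.44 to 0.40 in KO. Other probe sets above the nonspecific level in all 18 arrays were called where the chosen set was not. A second E2f1 set was higher with LPS in WT, by 0.66 (adjusted p = 0.00909 over all probe sets), a second Rpa2 set lower in WT, at -1.18 (adjusted p = 0.0157), and a second Mcm3 set lower in KO, at -0.59 (adjusted p = 0.0472). The call count in WT rose to 33 on deposited values without scaling and to 31 with arrays shifted to equal hybridisation controls. Under these settings the median of all genes was -0.44 and -0.43, and that of the members -1.30 and -1.29. Under each of the 3 other scalings 4 members took the other sign in WT. Over all genes the WT calls split into 2336 higher and 3191 lower, against 1581 and 3866 with equal medians, 743 and 6702 without scaling, and 611 and 4565 with equal hybridisation controls. The upper quartile of the deposited intensities was 66.6 to 75.7 units in WT LPS arrays and 109.5 to 124.9 in WT vehicle arrays, and 75.8 to 106.8 and 97.2 to 114.7 in KO. Without KO vehicle array 3, the KO count was 15 lower and 2 higher. The Gapdh 5′ minus 3′ log2 signal ran from -0.75 to -0.07 in WT LPS arrays and from -0.56 to -0.39 in KO LPS arrays, and its part was not tested.

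**Figure D3:**
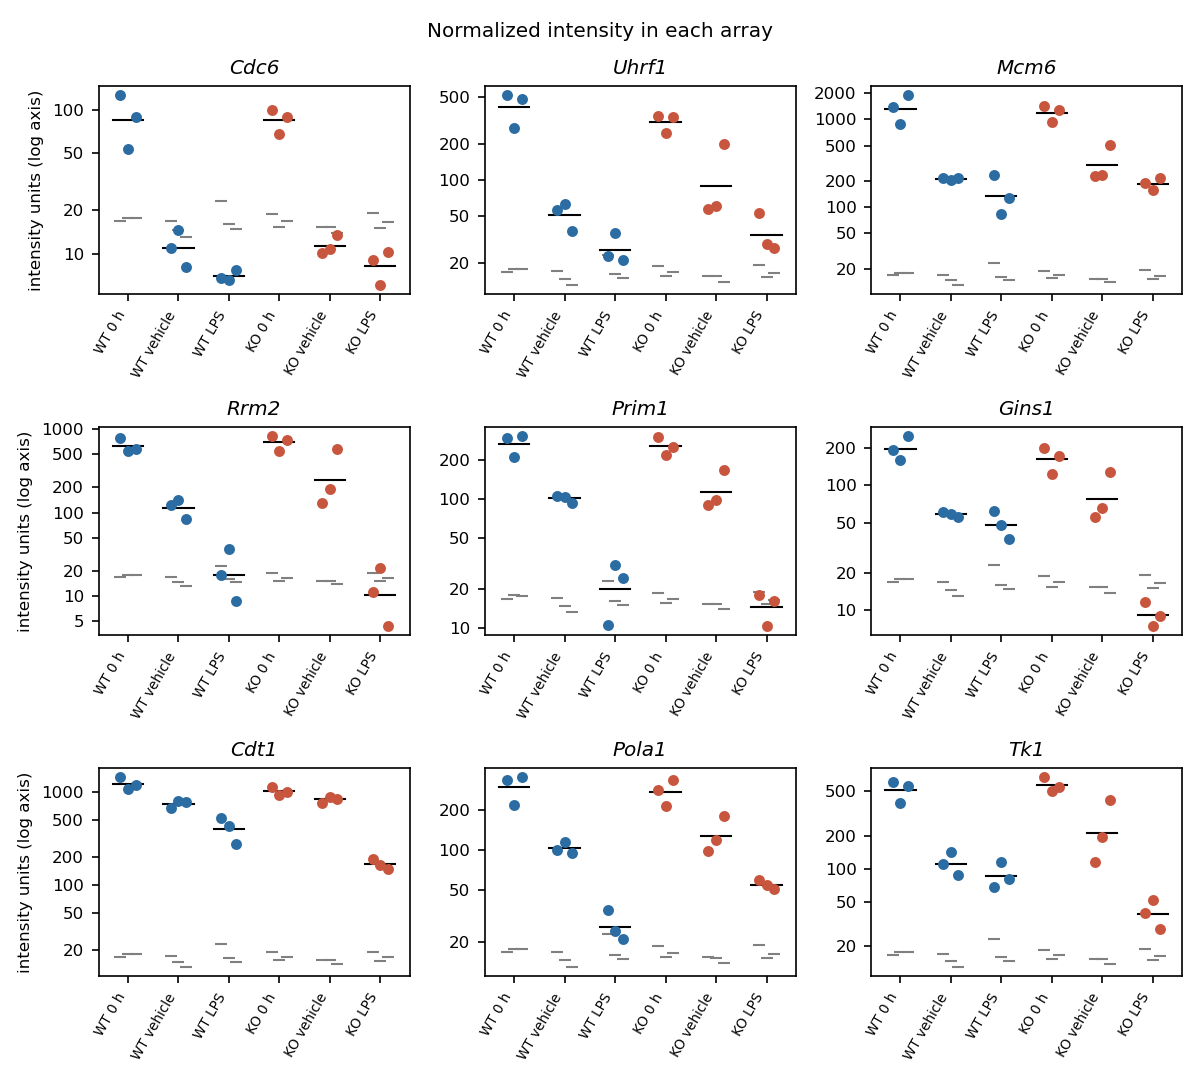
Normalized intensity (y axis, log scale, intensity units) of 9 DNA replication genes in each array by group (x axis); points are arrays, black bars the mean of log2 values and grey ticks each array's nonspecific level. Gins1 in KO after LPS reads 11.7, 7.56 and 9.01 units, under the grey ticks, while the 3 WT arrays after LPS read 62.9, 47.9 and 37.3.

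The next question was whether the LPS response of the replication genes differed between genotypes. By the test of the difference itself, 2 of 39 members were lower in KO relative to WT and none higher, where 0.591% of all genes were called lower and 0.515% higher (1.11% in all). These 2 were Gins1 and Cdt1. An unadjusted p under 0.05 was held by 7 members, beside 2077 of all 17097 genes.

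Gins1 is the PSF1 subunit of the GINS complex, which travels with the helicase. In WT it read 61.3, 59.2 and 56.3 units after vehicle and 62.9, 47.9 and 37.3 after LPS, which overlap. In KO it read 56.2, 65.5 and 128 after vehicle and 11.7, 7.56 and 9.01 after LPS, all of the latter below the nonspecific level. The LPS difference was -0.29 ± 0.28 in WT (adjusted p = 0.505), and in KO the level was at least 4.63-fold lower (fitted -3.07 ± 0.28, adjusted p = 2.53e-07). The genotypes' responses differed by -2.78 ± 0.40 (adjusted p = 0.002). With values raised to the nonspecific level this was -1.92 (adjusted p = 0.00657). It was -2.42 without KO vehicle array 3, and the call held under all 20 alternatives run, at adjusted p from 0.00164 to 0.039. Gins1 has 1 probe set on the array, so no second measurement of it was at hand, and Gins2 of the same complex did not pass with LPS in either genotype (0.00 ± 0.28 in WT, 0.11 ± 0.28 in KO).

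Cdt1 read 664, 796 and 772 units after vehicle in WT and 517, 427 and 276 after LPS. The KO vehicle values were 758, 888 and 842, and the KO LPS values 190, 165 and 147. The KO LPS arrays lay below every other array of the gene. The difference was -0.92 ± 0.19 in WT (adjusted p = 0.00118) and -2.31 ± 0.19 in KO (adjusted p = 7.29e-08), and the responses differed by -1.40 ± 0.27 (adjusted p = 0.0149). A second Cdt1 probe set, above the nonspecific level in all 18 arrays, gave -1.43 in WT and -2.22 in KO, a difference of -0.79 (adjusted p = 0.554 over all probe sets). The call on the difference was lost in 9 of 20 alternatives, with adjusted p from 0.00448 to 0.425. These included leaving out WT replicate 1 (0.0524), WT replicate 2 (0.0974), KO replicate 2 (0.141) or KO replicate 3 (0.113), and each of the 3 other scalings (0.135, 0.134 and 0.425).

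Tk1, the salvage kinase for thymidine, missed the threshold. It read 68.2, 115 and 80.5 units after LPS in WT and 40.4, 52.0 and 28.9 in KO, so all KO values lay lower. The responses differed by -2.05 ± 0.51 (adjusted p = 0.0685), with Tk1 after vehicle at 111, 141 and 88.0 in WT and 116, 192 and 422 in KO. For Rrm2 the responses differed by -1.92 ± 0.82 (adjusted p = 0.346). Over the 39 members the median difference between responses was -0.28, and it turned to 0.23 without scaling and 0.26 with equal hybridisation controls, settings where the median of all genes was 0.44 and 0.48. It was -0.06 without KO vehicle array 3, where 7 members took the other sign, and 0.01 without KO replicate 3. Over all genes the calls split into 88 higher and 101 lower, against 144 and 42 with equal medians, 278 and 16 without scaling, and 120 and 12 with equal hybridisation controls.

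KO and WT were then compared at each condition. At 0 h, 0 of 39 members passed with limma, where 0.111% of all genes were called higher and 0.0292% lower (0.14% in all). An unadjusted p under 0.05 was held by 0 members, beside 1063 of all 17097 genes. The differences ran from -0.40 (Uhrf1) to 0.15 (Tk1), and their 95% intervals from -1.27 (Uhrf1) to 1.37 (Rrm2). After vehicle, 0 of 39 passed, where 0% of all genes were called. An unadjusted p under 0.05 was held by 2 members, beside 778 of all 17097 genes. The sign was positive for 38 of 39, with a median of 0.22 that was 0.05 to 0.10 under the other scalings, and intervals that reached 2.34 (Rrm2). Without KO vehicle array 3 the median was 0.00, and 18 members took the other sign.

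After LPS, 1 member was higher and 3 were lower in KO than in WT, where 2.82% and 3.15% of all genes were called (5.97% in all). Gins1 was at least 2.87-fold lower in KO (fitted -2.38 ± 0.28, adjusted p = 9.28e-05), from the LPS values given above, which do not overlap. Cdt1 was lower by 1.24 ± 0.19 (log2 difference -1.24, adjusted p = 0.000859), also without overlap. This call was lost with equal hybridisation controls (adjusted p = 0.0979) and with only the groups compared (0.0931). The second Cdt1 probe set, above the nonspecific level in all 18 arrays, differed by -0.83 and did not pass (adjusted p = 0.152 over all probe sets). Pola1 read 35.2, 24.5 and 21.1 units in WT and 59.2, 53.7 and 50.3 in KO, so its KO arrays were all higher. Its difference was 1.04 ± 0.24 (adjusted p = 0.0174). The Pola1 call was lost in 6 of 20 alternatives, among them leaving out WT replicate 2 (adjusted p = 0.0675), WT replicate 3 (0.0823), KO replicate 1 (0.0662) or KO replicate 2 (0.0711). Dnmt1 read 199, 269 and 206 units in WT and 154, 103 and 102 in KO, all KO arrays lower, at -0.93 ± 0.22 (adjusted p = 0.0202). The Dnmt1 call was lost without WT replicate 2, WT replicate 3 or KO replicate 2. It was also lost without scaling, with equal hybridisation controls and with only the groups compared.

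Over all members the median after LPS was -0.07, with 19 positive and 20 negative signs, and it turned to 0.04 with equal medians, 0.26 without scaling and 0.33 with equal hybridisation controls, while the median of all genes was 0.07, 0.29 and 0.36. The member count fell to 2 without WT replicate 2, WT replicate 3 or KO replicate 2. Over all genes the calls split into 482 higher and 538 lower, against 514 and 235 with equal medians, 1238 and 129 without scaling, and 533 and 73 with equal hybridisation controls. Averaged over the 3 conditions, with 3 averages in each genotype, 0 of 39 members passed with limma. Of all genes, 0.246% were called higher and 0.123% lower (0.368% in all). An unadjusted p under 0.05 was held by 5 members, beside 1741 of all 17097 genes.

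**Figure D4:**
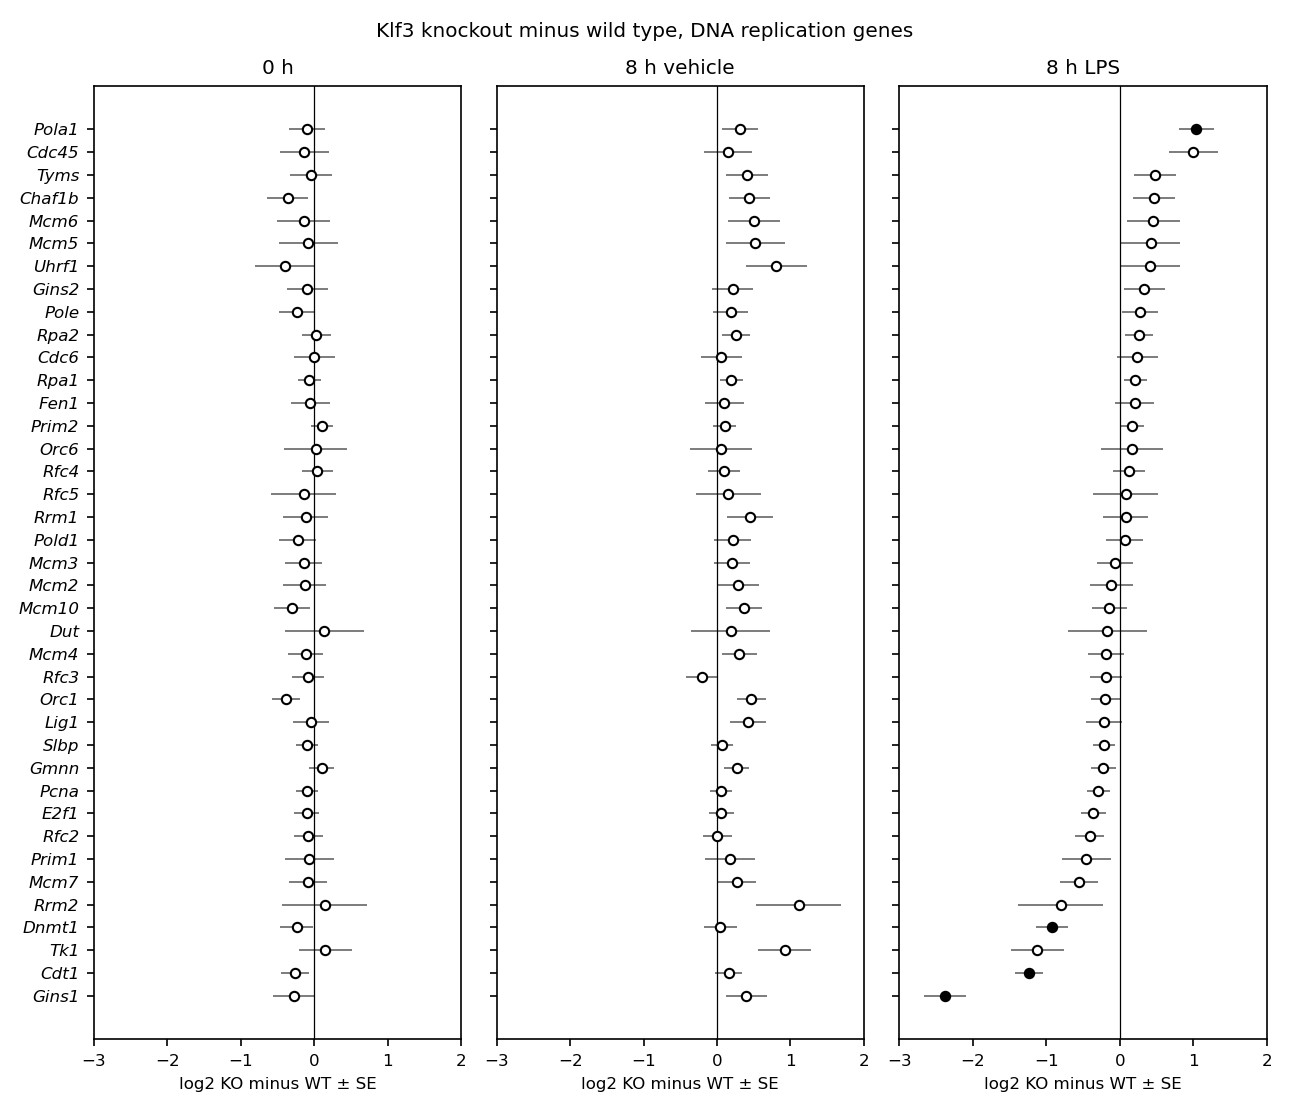
KO minus WT log2 difference ± SE (x axes) of the 39 DNA replication genes (y axis, ordered by the difference after LPS) at 0 h, after 8 h vehicle and after 8 h LPS; filled points passed an adjusted p of 0.05. Filled points appear after LPS alone, with Pola1 at 1.04 and Dnmt1, Cdt1 and Gins1 at -0.93, -1.24 and -2.38.

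Other cell cycle genes were read beside the members, from lists made by function. Of all genes, 7.01% were called lower and 7.16% higher with vehicle in WT, and 5.79% and 6.76% in KO. With LPS these shares were 18.7% and 13.7% in WT, and 20.6% and 13.9% in KO. Among 43 further replication and fork genes measured, 17 fell and 2 rose with vehicle in WT, with a median of -0.59, and 11 fell and 1 rose in KO, with a median of -0.46. Clspn, a fork checkpoint adaptor, fell by 1.89 ± 0.43 in WT (adjusted p = 0.00635), Pclaf, a PCNA-binding factor, by 1.80 ± 0.32 (adjusted p = 0.00111), and Timeless by 1.74 ± 0.26 (adjusted p = 0.000361). In KO Tipin, the partner of Timeless, fell by 1.49 ± 0.28, Wdhd1 by 1.15 ± 0.26 and Pclaf by 1.15 ± 0.32. With LPS, 20 fell and 1 rose in WT and 24 fell and 2 rose in KO. Pole2, a subunit of the leading strand polymerase, fell most, by 2.69 ± 0.29 and 3.10 ± 0.29. Samhd1, which degrades nucleotide precursors, rose in both, by 1.83 ± 0.21 (adjusted p = 4.74e-06) and 1.69 ± 0.21 (adjusted p = 9.02e-06).

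Among 18 E2F, RB and S-phase cyclin genes, 10 fell with vehicle in WT and 6 in KO, beside 7.01% and 5.79% of all genes. Ccne2, a cyclin of S-phase entry, fell by 4.02 ± 0.33 in WT (adjusted p = 2.44e-06) and 3.40 ± 0.33 in KO (adjusted p = 8.08e-06). Ccne1 fell by 1.90 and 1.57, and E2f7 by 1.79 and 1.36. With LPS, 10 fell in WT and 11 in KO, beside 18.7% and 20.6% of all genes called lower. Ccna2, the cyclin of S phase and G2, led at -3.38 ± 0.25 and -3.62 ± 0.25, whereas Ccne2 did not pass (-0.50 and -0.72). E2f3 rose with LPS in both genotypes, by 0.93 and 0.85.

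The same counts were made for 28 measured mitosis genes. With vehicle, 9 fell in WT and 1 (Ccnb2) in KO, with medians of -0.75 and -0.43. These are 32.1% and 3.57% of the list, beside 7.01% and 5.79% of all genes called lower. With LPS, 25 fell in each genotype, with medians of -2.15 and -2.36, beside 18.7% and 20.6% of all genes called lower. Plk1, a mitotic kinase, fell by 4.18 ± 0.51 in WT, Anln by 4.05 ± 0.43 and Cenpf, a kinetochore protein, by 4.02 ± 0.53. For the replication members the medians were -1.26 and -0.84 with vehicle and -0.64 and -0.79 with LPS. Whether the lists differ was not tested, and KO vehicle array 3 was the highest and WT vehicle array 3 the lowest of its group for all 28 mitosis genes. At 0 h array 2 was the lowest for 23 of them in WT and 26 in KO.

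**Figure D5:**
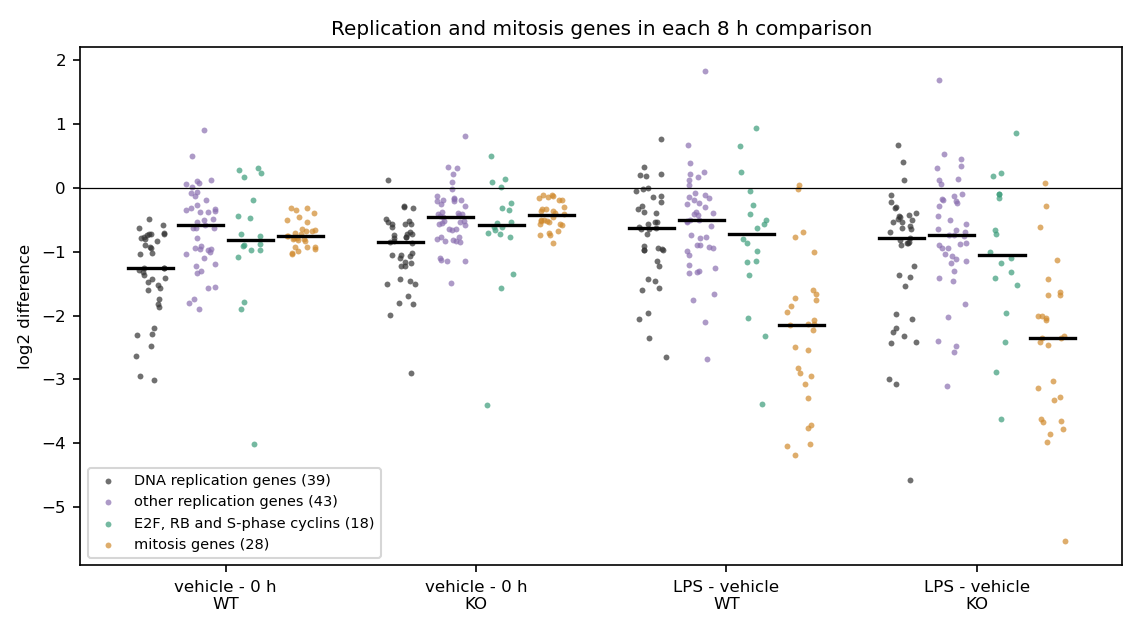
Log2 difference (y axis) of each gene in 4 lists, for vehicle minus 0 h and LPS minus vehicle in WT and KO (x axis); points are genes and bars list medians. The replication genes have medians of -1.26, -0.84, -0.64 and -0.79 and the mitosis genes -0.75, -0.43, -2.15 and -2.36, in the order of the x axis.

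The members were also set beside the promoter letters. Of all genes, 7.01% and 5.79% were called lower with vehicle in WT and KO, and 18.7% and 20.6% with LPS. With vehicle in WT, 12 of the 13 members with an E2F match fell, with a median of -1.52, and 15 of the 19 without a match, with a median of -1.26. In KO the counts were 8 of 13 and 11 of 19, with medians of -1.10 and -0.79. With LPS, 5 of 13 and 10 of 19 fell in WT, with medians of -0.64 and -0.56, and 7 of 13 and 9 of 19 in KO, with medians of -0.69 and -0.59. Members on both sides of this split fell in each comparison. Without a match were Rrm2 and Prim1, whose fitted falls with LPS in WT, by the chosen probe sets, were the widest of the members. A second Prim1 probe set differed by -1.37 in WT. The Prim1 stretch shown holds ttcccgc, which is the searched TTTCCCGC without its first letter. The search took exact letters within these windows only, and E2F binding was not tested.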

How the data were processed

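RNA from 18 macrophage samples was hybridised to Affymetrix HT MG-430PM arrays, 1 array a sample. The authors deposited linear intensity, 1 value per probe set and array. Per the submitters' processing notes Partek was used; which version, background step or scaling it ran with was not given in the sources read here. The log2 of these values was quantile-normalized over all 45141 probe sets, and 104 control probe sets were dropped. Of the rest, 28898 had 1 gene symbol, 551 several and 15588 none in the platform annotation. No dim genes were filtered out. For each of 17097 genes the probe set with the highest mean was used.

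Differences were tested with limma 3.58.1 in R 4.3.3 (lmFit and eBayes), 1 mean per group over all 18 arrays, two-sided, with Benjamini-Hochberg adjustment over all genes. For KO against WT over the conditions, the 3 arrays of a genotype and number were averaged before the fit. All 10 comparisons were read. Where every array of a group was below the nonspecific level, the fold is a bound: the bright group's mean against the mean of, per array, the higher of that level and the gene's own signal. The script was tested on simulated data.

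Same-numbered arrays of a genotype shared a plate column. Their deviations from group means correlated at -0.05 to 0.14 over all genes and at -0.47 to 0.44 over the members. These values do not settle whether the numbers pair samples, and the main fit did not pair them. Alternatives covered scaling, background, an offset of 32 units, dim genes, probe sets, replicates, array weights, blocks and the samples in the fit; leaving out a replicate drops the 3 arrays of a genotype with that number. For arrays, no depth applies and the 3 arrays a group limit the precision. The members and gene lists were chosen with earlier results of these data known. Values in every array are printed for the 3 called members with the largest difference in each comparison, the member nearest the median LPS difference in WT and the members whose LPS response differed between genotypes. Pcna, Mcm5, Tk1, Dnmt1 and the second probe sets described were added after their values were seen. For each other list, up to 3 called genes with the largest difference are named, and E2f3 and Samhd1 were added after their values were seen.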

Additional observations from a re-analysis of the deposited data

Results flagged for a closer look

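For 2 members the LPS response differed between the genotypes by the test of the difference itself. Gins1 differed by -2.78 ± 0.40 (log2, KO response minus WT response, adjusted p = 0.002 with limma), with KO LPS arrays at 11.7, 7.56 and 9.01 units, below the nonspecific level. Cdt1 differed by -1.40 ± 0.27 (adjusted p = 0.0149), and this call was lost in 9 of 20 alternatives. Its second probe set differed by -0.79 and did not pass (adjusted p = 0.554 over all probe sets).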

How the results depend on the processing

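Of the named gene results, 22 were rerun under 20 alternatives, and none of these changed direction. Other members did change sign, 4 for LPS in WT and 1 or 2 for LPS in KO under the 3 other scalings. The member medians of the difference in LPS response and of KO against WT after LPS turned to 0.23 and 0.26 without scaling. Among the 22 results, 412 values kept their side of the threshold and 28 lost the call. The member count for LPS in WT, 19, was 33 without scaling and 31 with equal hybridisation controls. The count whose LPS response differed by genotype, 2, was 1 with equal medians, without scaling, with equal hybridisation controls, with the mean of all probe sets and with only the groups compared. For KO against WT after LPS, 4, it was 1 with only the groups compared. For the average over conditions, 0, it was 1 with equal medians and when dim values were set to the nonspecific level. Leaving out KO vehicle array 3, an alternative chosen after seeing the data, gave 1 for that average, 5 for KO against WT after LPS and 30 for vehicle in KO. Leaving out 1 replicate gave 14 to 19 for LPS in WT, 16 to 22 for LPS in KO, 1 to 3 for the difference in response, 2 to 4 for KO against WT after LPS, 20 to 33 for vehicle in WT and 2 to 26 for vehicle in KO. With the replicate block, the counts were 19 and 24 for LPS in WT and KO, 2 for the difference in response, 4 for KO against WT after LPS, and 36 and 25 for vehicle in WT and KO, and the block ended none of the 22 calls. The cause of each of these moves was not tested. Signal near the nonspecific level limits the folds of Cdc6, Rrm2, Prim1, Dut and Gins1: with an offset of 32 units the genotype difference of Gins1 was -1.25.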
